A study of Sus scrofa with 24 samples.

Results

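The interferon gamma type genes described here are the chemokines CXCL9, CXCL10 and CXCL11, the guanylate-binding proteins GBP1 and GBP2, the transcription factors IRF1 and STAT2, and the immunoproteasome subunits PSMB8 and PSMB9. They were found on the array as every non-control probe whose gene name, description or accession names one of these 9 genes, which gave 23 of 43603 probes and 9 of 4862 named genes. STAT2 had 6 probes, GBP1, PSMB8 and PSMB9 had 3 each, CXCL10, GBP2 and IRF1 had 2 each, and CXCL9 and CXCL11 had 1 each. A further probe, which names STAT2 only within the name of another protein, was left out. The 9 genes were chosen with earlier results of these pigs known, so their differences between groups are given as a description and support nothing.

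Liver RNA was measured at 115 kg body weight in 24 pigs (Sus scrofa), with 1 array per pig and 8 pigs per group. RFIplR pigs came from the high residual feed intake line and received only as much feed as the low line ate. RFIpl pigs were of the same high line with free access to feed. RFIneg pigs were of the low line, also with free access to feed. RFI stands for residual feed intake, what an animal eats over the amount its growth and maintenance predict. RFIpl minus RFIneg therefore sets the lines side by side at free feeding, RFIplR minus RFIpl sets the feeding levels side by side within the high line, and RFIplR minus RFIneg sets the lines side by side at 1 feeding level. A level below is the log2 processed signal less the 75th percentile of that array's log2 signals, and levels of different probes are not compared with each other.

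Interferon gamma is released mainly by T cells and natural killer (NK) cells and signals through the receptor-bound kinases JAK1 and JAK2. The signal induces IRF1, which drives genes for chemokines, GTPases and antigen processing. CXCL9, CXCL10 and CXCL11 attract lymphocytes that carry the receptor CXCR3, and in the liver both hepatocytes and non-parenchymal cells can make them. Guanylate-binding proteins are large GTPases that act against intracellular pathogens. PSMB8 and PSMB9 replace constitutive catalytic subunits of the proteasome, which changes the peptides that reach MHC class I molecules. STAT2 belongs mainly to the type I interferon signal, where it acts together with IRF9.

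The probe sequences, as the deposited scanner files give them, are shown because several statements below rest on a single probe, on overlapping probes or on probes that disagree. CXCL11 and CXCL9 each rest on 1 probe, so nothing on the array checks them. CXCL9 and CXCL10 are shown by their first 30 of 60 bases.
CXCL9, probe A_72_P442032, first 30 bases: tctcaacgtcctgatcaaaagaagatgaca
CXCL10, probe A_72_P165266, first 30 bases: ctgagtgggtgctcttcaaaataaaactaa
CXCL11, probe A_72_P442072: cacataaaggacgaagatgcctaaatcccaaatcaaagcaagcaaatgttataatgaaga

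Capitals mark a run that 2 probes of the same gene share, 56 bases in GBP2 and 37 bases in PSMB8. The remaining PSMB8 probe, A_72_P088176, has no run of 20 bases or more in common with the other two.
GBP2, probe A_72_P293034: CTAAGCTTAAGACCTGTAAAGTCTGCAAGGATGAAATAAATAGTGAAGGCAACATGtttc
GBP2, probe A_72_P532613: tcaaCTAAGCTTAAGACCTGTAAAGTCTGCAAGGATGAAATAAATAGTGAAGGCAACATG
PSMB8, probe A_72_P444948: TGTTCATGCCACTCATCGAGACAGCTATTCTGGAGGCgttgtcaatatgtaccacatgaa
PSMB8, probe A_72_P564399: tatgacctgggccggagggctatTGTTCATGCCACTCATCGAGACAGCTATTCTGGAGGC
PSMB8, probe A_72_P088176: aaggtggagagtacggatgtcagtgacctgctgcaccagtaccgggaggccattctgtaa

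PSMB9 is shown by the probe that followed its brightest probe closely and by the start of the one that did not.
PSMB9, probe A_72_P440071: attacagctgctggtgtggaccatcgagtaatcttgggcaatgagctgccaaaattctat
PSMB9, probe A_72_P362653, first 30 bases: tacttgtttatctatttacacttgaaatca

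No pair of brightest probes of different members shared a run of more than 9 bases. The GBP2 probes have a run of 20 bases or more in common with 1 further probe on the array that the name tables leave unnamed, so GBP2 is reported as uncertain. In the RefSeq annotation of Sscrofa11.1, used here for gene order only, CXCL10 and CXCL11 are neighbours, ART3 lies between CXCL9 and CXCL10, GBP1 and GBP2 are neighbours, and TAP1 lies between PSMB8 and PSMB9.

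The filter on dim probes kept those that 6 or more of the 8 arrays in some group read well above background. All 23 probes passed it, and none was saturated. Of these probes, 21 were well above background on all 24 arrays. CXCL11 missed that mark in RFIpl pig 3, and PSMB9 probe A_72_P362653 missed it in 1 RFIplR pig. Arrays correlated with each other at 0.971 to 0.991 over the probes kept. The tissue label was matched by its markers: all 10 hepatocyte markers on the array passed the filter, and ALB (albumin) had a median of 9.46 in RFIplR pigs, 9.38 in RFIpl pigs and 9.40 in RFIneg pigs.

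Among the chemokines, CXCL9 varied widely in both groups of the high line. Its level ranged from -0.65 to 1.90 with a median of 0.42 in RFIplR pigs, from -0.73 to 2.19 with a median of 0.85 in RFIpl pigs, and from -0.87 to 0.42 with a median of -0.38 in RFIneg pigs. The groups overlapped, but 4 RFIplR pigs and 5 RFIpl pigs stood above the highest RFIneg pig. The difference was 0.99 ± 0.38 (SE) for RFIpl minus RFIneg, -0.29 ± 0.38 for RFIplR minus RFIpl, and 0.70 ± 0.38 for RFIplR minus RFIneg.

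CXCL10 had its extremes at both ends in the same group. It ranged from 2.15 to 3.73 with a median of 3.23 in RFIplR pigs, from 1.80 to 4.80 with a median of 3.53 in RFIpl pigs, and from 2.32 to 3.69 with a median of 3.11 in RFIneg pigs. RFIpl pigs 7, 5 and 4, at 4.80, 4.78 and 4.41, were the highest of all 24, and RFIpl pig 1 was the lowest. The difference was 0.41 ± 0.36 (SE) for RFIpl minus RFIneg, -0.54 ± 0.36 for RFIplR minus RFIpl, and -0.13 ± 0.36 for RFIplR minus RFIneg. A second CXCL10 probe, A_72_P509208, gave 0.39, -0.54 and -0.15 in the same order, and its deviations from the group means correlated with those of the first at r = 0.99.

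CXCL11 was the member with the largest spread between animals. It ranged from -4.98 to -2.01 with a median of -2.68 in RFIplR pigs, from -5.98 to -1.22 with a median of -2.20 in RFIpl pigs, and from -3.86 to -1.18 with a median of -2.51 in RFIneg pigs. In CXCL11, 4 pigs of the high line lay apart at the bottom: RFIplR pigs 3 and 4 at -4.98 and -4.95, and RFIpl pigs 1 and 3 at -5.19 and -5.98. The next lowest pig, RFIneg pig 8, was at -3.86, and the others lay between -3.0 and -1.18. The means were lower in the high line (RFIpl minus RFIneg -0.40 ± 0.62, RFIplR minus RFIneg -0.71 ± 0.62, SE), whereas the RFIpl median was above the RFIneg median.

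The same 4 pigs were low, but not alone, in the neighbouring gene CXCL10, at 2.15 in RFIplR pig 3, 2.43 in RFIplR pig 4, 1.80 in RFIpl pig 1 and 2.34 in RFIpl pig 3. RFIplR pig 1 and RFIneg pig 1 were as low in CXCL10, at 2.44 and 2.32, and had ordinary CXCL11 levels of -2.49 and -2.54. In CXCL9 the 4 pigs were at -0.51, -0.26, -0.73 and -0.28 in the same order, within the range of the RFIneg pigs. In GBP1, RFIplR pig 4 was at 2.14, above every RFIneg pig. RFIplR pig 4 was thus not low in all 9 genes, with 5 of them above the 24-pig mean. The others of the 4 were low in most of the 9 genes. Above that mean were 2 genes in RFIplR pig 3, 2 in RFIpl pig 1 and 1 in RFIpl pig 3.

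**Figure D1:**
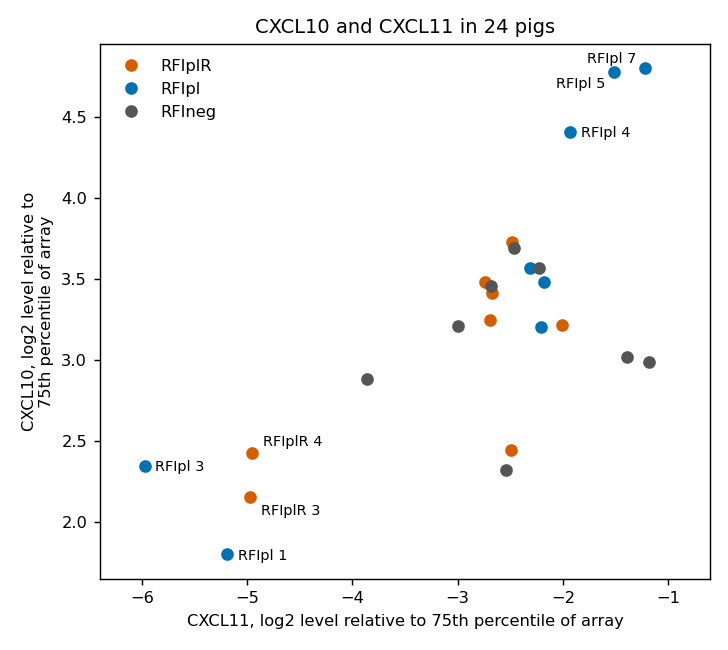
CXCL11 (x axis) against CXCL10 (y axis), both as log2 level with the array's 75th percentile subtracted, in 24 pigs coloured by group. The 4 high-line pigs that lie apart sit at CXCL11 levels of -4.95 or lower with CXCL10 at 2.43 or lower, and RFIpl pigs 4, 5 and 7 sit at the top.

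GBP1 was higher in RFIpl pigs than in RFIneg pigs at every rank from lowest to highest. It ranged from 1.04 to 2.34 with a median of 1.63 in RFIplR pigs, from 1.28 to 2.83 with a median of 2.0 in RFIpl pigs, and from 0.92 to 1.89 with a median of 1.46 in RFIneg pigs. In 6 of 8 RFIpl pigs and 2 of 8 RFIplR pigs GBP1 exceeded the highest RFIneg pig. The difference was 0.64 ± 0.22 (SE) for RFIpl minus RFIneg and -0.43 ± 0.22 for RFIplR minus RFIpl, and the other GBP1 probes gave 0.59 and 0.67, and -0.42 and -0.50.

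GBP2 had its highest values in a few RFIpl pigs. It ranged from 0.03 to 0.85 with a median of 0.50 in RFIplR pigs, from 0.20 to 1.36 with a median of 0.44 in RFIpl pigs, and from 0.06 to 0.55 with a median of 0.20 in RFIneg pigs. The 3 RFIpl pigs above the highest RFIneg pig were pigs 4, 5 and 7, and the other RFIpl pigs were at 0.50 or lower. Of the RFIplR pigs, 4 also stood above the highest RFIneg pig. The difference was 0.41 ± 0.16 (SE) for RFIpl minus RFIneg and 0.23 ± 0.16 for RFIplR minus RFIneg.

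Of the transcription factors, IRF1 differed little between animals and STAT2 least. IRF1 ranged from 0.48 to 1.35 with a median of 0.99 in RFIplR pigs, from 0.83 to 1.63 with a median of 1.24 in RFIpl pigs, and from 0.64 to 1.32 with a median of 0.88 in RFIneg pigs. Here the highest pig was RFIpl pig 6, and RFIpl pig 7 was at 1.11, below the group's median. STAT2 ranged from 2.70 to 3.06 with a median of 3.02 in RFIplR pigs, from 2.81 to 3.44 with a median of 3.15 in RFIpl pigs, and from 2.85 to 3.13 with a median of 3.01 in RFIneg pigs. The IRF1 difference was 0.32 ± 0.14 (SE) for RFIpl minus RFIneg and -0.31 ± 0.14 for RFIplR minus RFIpl, against 0.12 ± 0.09 and -0.16 ± 0.09 for STAT2. The 6 STAT2 probes ranged from 0.04 to 0.26 for RFIpl minus RFIneg and correlated with each other at r = 0.10 to 0.88 over 22 pigs. The highest r was between probes A_72_P088106 and A_72_P119201, which share a run of 54 bases. STAT2 thus rests on probes that followed each other loosely.

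PSMB8 varied widely in all 3 groups. It ranged from 0.15 to 1.60 with a median of 0.60 in RFIplR pigs, from 0.31 to 2.23 with a median of 1.31 in RFIpl pigs, and from -0.34 to 1.68 with a median of 0.87 in RFIneg pigs. The 3 PSMB8 probes, one of which shares no long run with the others, correlated at r = 0.995 to 0.997, so the wide range was read alike by separate stretches of the transcript. The difference was 0.41 ± 0.30 (SE) for RFIpl minus RFIneg and -0.42 ± 0.30 for RFIplR minus RFIpl.

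PSMB9 had its highest values in a few RFIpl pigs. It ranged from 2.44 to 3.41 with a median of 2.74 in RFIplR pigs, from 2.71 to 4.55 with a median of 2.93 in RFIpl pigs, and from 2.24 to 3.1 with a median of 2.56 in RFIneg pigs. RFIpl pigs 7, 5 and 4 were the highest of all 24, at 4.55, 4.15 and 3.51, and the other RFIpl pigs lay between 2.71 and 2.97. The difference was 0.69 ± 0.23 (SE) for RFIpl minus RFIneg, with all 8 RFIpl pigs above the RFIneg mean, and -0.47 ± 0.23 for RFIplR minus RFIpl. Probe A_72_P440071 gave 0.72 and -0.52. The dim probe A_72_P362653 gave 0.18 and -0.47, and for RFIplR minus RFIneg it had the opposite sign to the brightest probe, -0.29 against 0.22.

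**Figure D2:**
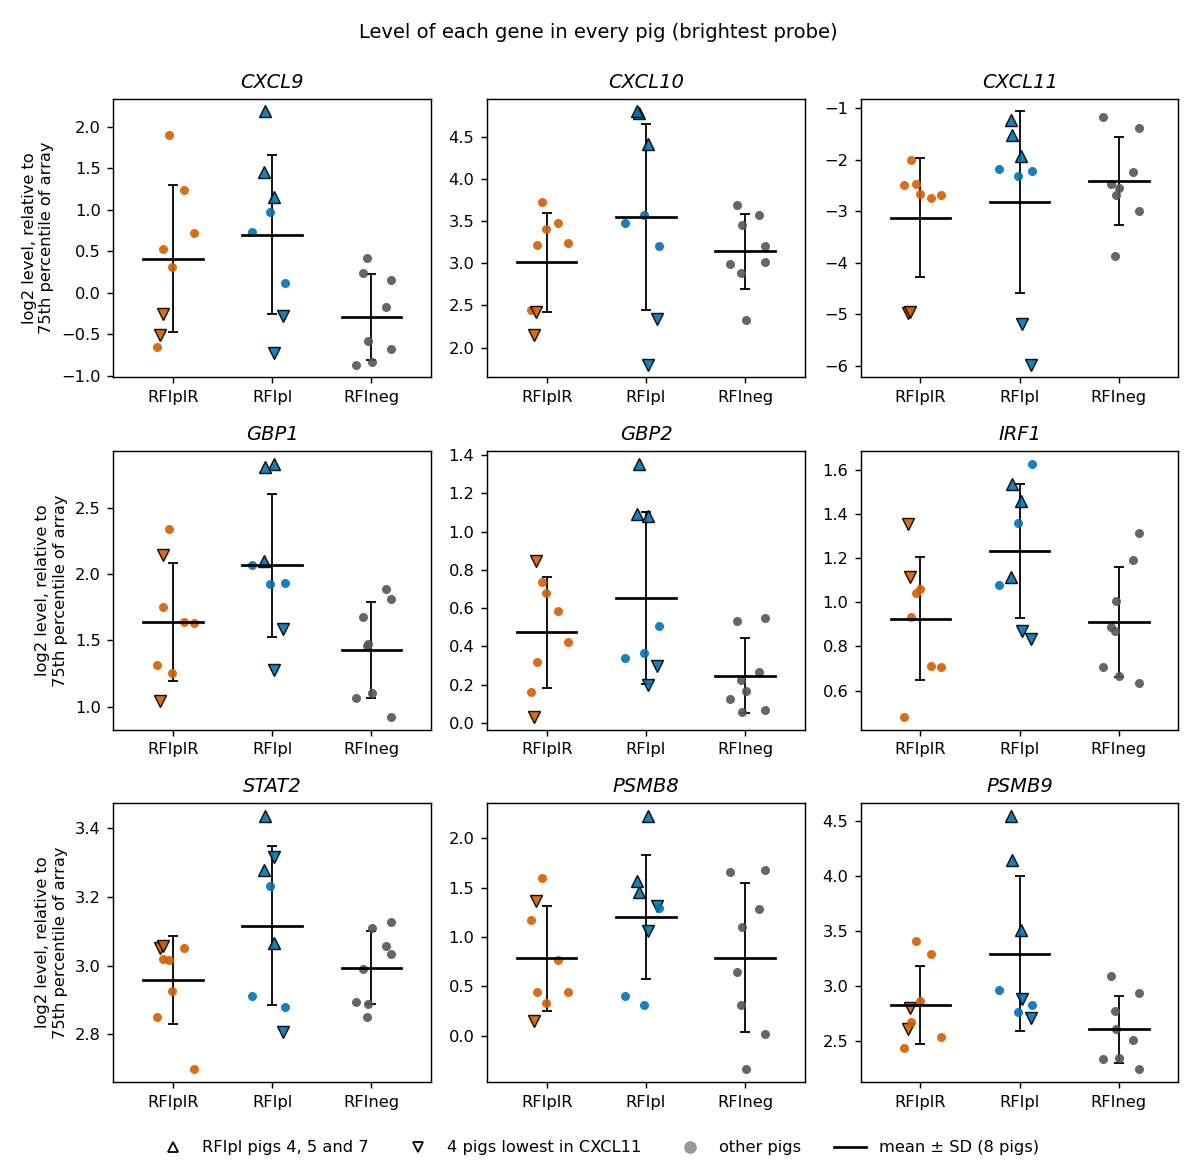
Level of each of the 9 genes in every pig, by group, as log2 with the array's 75th percentile subtracted, from the brightest probe of each gene (scales differ between panels). Bars show the mean ± SD of 8 pigs. Upward triangles mark RFIpl pigs 4, 5 and 7, which hold the 3 highest levels of CXCL10, GBP2 and PSMB9, and downward triangles mark the 4 pigs that lie apart in CXCL11.

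Across the table, limma (lmFit and eBayes with Benjamini-Hochberg adjustment over 29665 probes) called 0 of the 23 member probes in each comparison at an adjusted p below 0.05. The share of all probes called was 0.152% for RFIpl minus RFIneg, 0% for RFIplR minus RFIpl and 0.276% for RFIplR minus RFIneg. The adjusted p of the member probes ranged from 0.236 to 0.927 for RFIpl minus RFIneg, from 0.890 to 0.998 for RFIplR minus RFIpl, and from 0.455 to 0.995 for RFIplR minus RFIneg. At an unadjusted p below 0.05, 11 of 23 were higher in RFIpl than in RFIneg and 0 lower (background 5.09% higher and 4.5% lower). Several of the 11 were probes of the same gene, so they do not count separately. By brightest probe, 5 of the 9 genes passed. For RFIplR minus RFIpl, 0 of 23 were higher and 4 lower (background 2.82% and 2.49%), and for RFIplR minus RFIneg 0 were higher and 0 lower (background 6.59% and 6.16%). In no member probe were the groups free of overlap, against 0.138%, 0.0337% and 0.145% of all probes in those comparisons. The median difference over the 23 probes was 0.39, -0.31 and 0.01, where that of all probes was 0.003, -0.003 and 0.001. RFIpl minus RFIneg and RFIplR minus RFIpl share the RFIpl pigs, so their opposite signs come from the same 8 animals.

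Much of the RFIpl mean came from 3 pigs. Levels were averaged over the 9 genes, each scaled to its own SD within groups. On that scale RFIpl pigs 5, 7 and 4 stood 2.03, 1.53 and 1.41 SD above the 24-pig mean, and the next pig, RFIplR pig 2, stood at 0.80. Each of the 3 was above the 24-pig mean in all 9 genes. The remaining RFIpl pigs lay between -0.76 and 0.34, and the RFIneg pigs between -0.95 and 0.34. No label sets these 3 pigs apart; they were picked out by the values, and the differences without them are given as a range of what the means rest on.

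Without RFIpl pigs 5 and 7, the difference for RFIpl minus RFIneg was 0.62 for CXCL9, -0.01 for CXCL10, -0.88 for CXCL11, 0.51 for GBP1 and 0.22 for GBP2. It was 0.29 for IRF1, 0.04 for STAT2, 0.31 for PSMB8 and 0.34 for PSMB9. Leaving out pig 4 as well, an alternative chosen after the values were seen, gave 0.45 for CXCL9, -0.26 for CXCL10, -1.15 for CXCL11, 0.33 for GBP1, 0.09 for GBP2, 0.24 for IRF1, 0.04 for STAT2, 0.08 for PSMB8 and 0.23 for PSMB9. CXCL11, at -0.40 with all pigs, moved farthest. CXCL10 thus changed sign without pigs 5 and 7, and IRF1 moved least among the genes with a difference above 0.3. For RFIplR minus RFIpl, leaving out pigs 5 and 7 turned CXCL9 to 0.09, CXCL11 to 0.17 and GBP2 to 0.01, and leaving out pig 4 as well turned CXCL10 to 0.13.

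**Figure D3:**
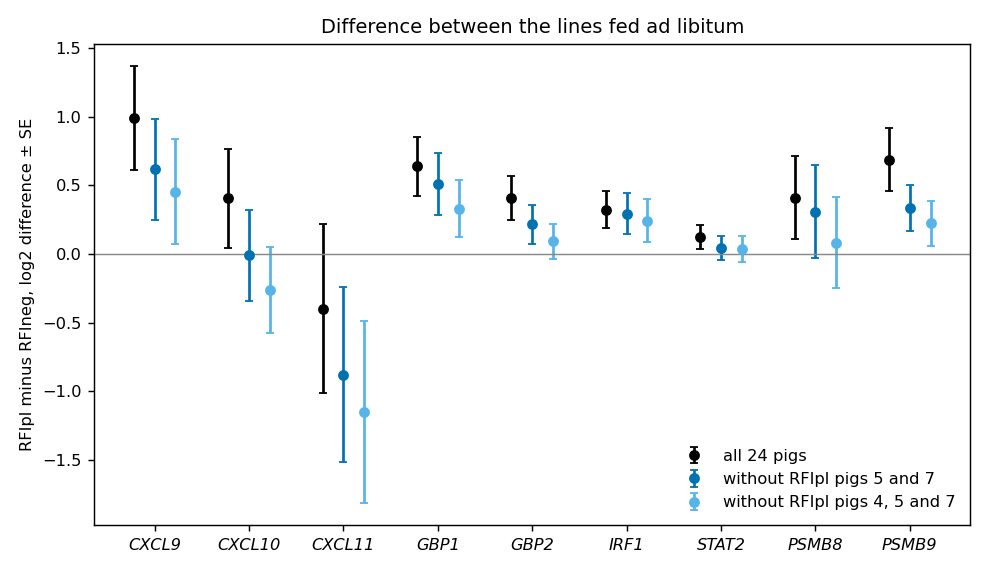
Difference RFIpl minus RFIneg (y axis, log2, points with SE bars from limma) for the brightest probe of each gene, with all 24 pigs, without RFIpl pigs 5 and 7, and without RFIpl pigs 4, 5 and 7. CXCL10 stands at 0.41 with all pigs and at -0.26 without the 3, whereas IRF1 stands at 0.32 and 0.24.

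The arrays lay on 6 slides of 4 arrays and were scanned on 2 days, and every slide and day held all 3 groups. With slide as a block the RFIpl minus RFIneg differences were 1.0 for CXCL9, 0.43 for CXCL10, -0.47 for CXCL11, 0.60 for GBP1, 0.38 for GBP2, 0.28 for IRF1, 0.11 for STAT2, 0.43 for PSMB8 and 0.75 for PSMB9. Slides held 1 or 2 pigs of a group, too few for values within each. Within the first scan day CXCL10 was at 0.78, CXCL11 at 0.45 and PSMB8 at 0.82, and within the second at 0.02, -1.25 and 0.11. CXCL9 was at 1.31 and 0.66, GBP1 at 0.85 and 0.38, GBP2 at 0.50 and 0.28, IRF1 at 0.51 and 0.14, STAT2 at 0.02 and 0.20, and PSMB9 at 0.71 and 0.65. For RFIplR minus RFIpl, the first and second day gave -0.60 and -0.00 for CXCL9, -0.96 and -0.11 for CXCL10, -0.96 and 0.21 for CXCL11, -0.57 and -0.41 for GBP1, and -0.59 and -0.31 for PSMB9. For IRF1 they gave -0.57 and -0.00. Each day held only a part of each group, in unequal numbers, and whether the days differ was not tested. On the slide with the smallest share of spots well above background, CXCL9 and CXCL10 averaged 0.91 and 0.68 above their group means, which includes RFIpl pig 5. On slide 4, which holds RFIpl pig 3 and RFIplR pig 3, CXCL11 averaged 1.06 below, written as -1.06. The part of the slides in these levels was not tested beyond the block.

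The spread between pigs of the same group is given as a description, since the genes were chosen with earlier results of these pigs known. The SD within groups over all 24 pigs was 1.31 for CXCL11, 0.81 for CXCL9, 0.76 for CXCL10 and 0.65 for PSMB8, where the median probe had 0.27. Of all probes kept, 99.5%, 96.9%, 96.2% and 93.6% had a smaller SD than these genes. PSMB9 and GBP1, at 0.49 and 0.45, exceeded 85.7% and 82.8% of probes. GBP2 at 0.33, IRF1 at 0.28 and STAT2 at 0.16 exceeded 64.1%, 52.3% and 13.8%. The spread was not alike in the groups. CXCL10 had an SD of 0.59 in RFIplR pigs, 1.10 in RFIpl pigs and 0.44 in RFIneg pigs, which exceeded 90.0%, 99.0% and 83.1% of probes. CXCL9 exceeded 96.8%, 98.3% and 88.5% in the same order, CXCL11 98.6%, 99.8% and 97.5%, and PSMB8 87.5%, 93.7% and 96.3%, so in RFIneg pigs PSMB8 ranked above CXCL9 and CXCL10. The wide spread of the brightest PSMB9 probe in RFIpl pigs rested mainly on pigs 5 and 7. Its SD was 0.35 in RFIplR pigs, 0.70 in RFIpl pigs and 0.31 in RFIneg pigs, and 0.29 in RFIpl pigs without those 2, which exceeded 69.5% of probes. The 2 were left out for their high levels, so a smaller SD without them was to be foreseen. The dim probe A_72_P362653 kept an SD of 0.51 without them, which exceeded 91.9% of probes.

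The members' co-variation within groups was measured as the correlation of deviations from the group means over the 22 pigs without RFIpl pigs 5 and 7, with a two-sided permutation test of 100000 resamples and Benjamini-Hochberg adjustment over the 36 pairs. Pairs with CXCL11 are given apart because 4 pigs lie apart in it. Of the other 28 pairs, 11 had an adjusted p below 0.05, with r from 0.56 to 0.81. They joined CXCL9, CXCL10, GBP1, GBP2 and PSMB9, all 10 pairs of which passed, and GBP1 with PSMB8. How many pairs of other genes pass the same test is not given here, so the count is not shown to be particular to these genes. The closest pair was CXCL9 and CXCL10 (r = 0.81, adjusted permutation p = 0.00072; rho = 0.82, adjusted permutation p = 0.00144), followed by GBP1 and GBP2 (r = 0.79, adjusted permutation p = 0.00192; rho = 0.70, adjusted permutation p = 0.012).

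Removing slide means left r between 0.53 and 0.80 for these 11 pairs. They ran from 0.47 to 0.88 within the first scan day and from 0.26 to 0.84 within the second. Leaving out the 2 pigs farthest from the median of the first gene left r between 0.36 and 0.81. With RFIpl pig 4 also left out, 7 of the 28 pairs passed, and with all 24 pigs 13 did. By rank, 10 of all 36 pairs passed over the 22 pigs and 4 without RFIpl pig 4. The weakest of the 11, GBP1 with PSMB8, went to r = 0.36 without the 2 farthest pigs and did not pass by rank (rho = 0.50, adjusted permutation p = 0.0779), so it rests on few animals.

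IRF1, the factor that interferon gamma induces, passed with none of the other genes (r from 0.22 to 0.49, adjusted permutation p from 0.087 to 0.545, over 7 pairs without CXCL11). STAT2 passed with none either (r from -0.13 to 0.22). PSMB8 and PSMB9, which lie on either side of TAP1, had r = 0.42 (rho = 0.33) with an adjusted permutation p = 0.148 over 22 pigs. PSMB9 went with CXCL9 at r = 0.75 (rho = 0.69, adjusted permutation p = 0.00192). Whether the correlation of PSMB9 with CXCL9 differs from that with PSMB8 was not tested.

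Over the same 22 pigs, 1 of the 8 pairs with CXCL11 passed, that with its neighbour in the genome, CXCL10 (r = 0.69, adjusted permutation p = 0.0151; rho = 0.54, adjusted permutation p = 0.0605). It rests on the 4 pigs that lie apart in CXCL11, which are also low in CXCL10. Over the 18 other pigs r was 0.05 (rho = 0.03) for this pair and ran from -0.39 to 0.15 over the 8 pairs. Those pigs were left out for their CXCL11 values, after these were seen, which narrows the range of CXCL11, so the values are a description and do not show that CXCL10 and CXCL11 vary apart.

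**Figure D4:**
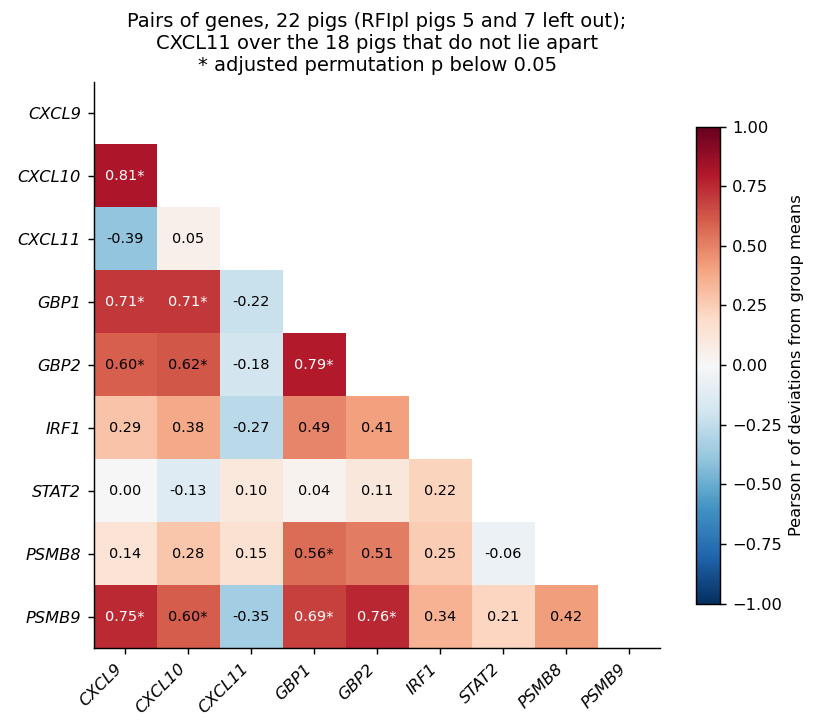
Pearson r between deviations from group means for each pair of the 9 genes, over 22 pigs, or over 18 pigs for pairs with CXCL11; colour gives r and asterisks mark an adjusted permutation p below 0.05. CXCL9, CXCL10, GBP1, GBP2 and PSMB9 form a block of r from 0.60 to 0.81, and the CXCL11 row runs from -0.39 to 0.15.

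The named genes whose pattern was most like the 9 were ranked by the correlation with the mean of their scaled deviations, over 3954 genes. Over 22 pigs these were ITGAL (r = 0.87), ARHGAP30 (0.85), TAP1 (0.85), SLA2 (0.79), CD74 (0.79), BST2 (0.79), CD3G (0.78), NCF1 (0.77), KCNAB2 (0.77) and TMEM173 (0.77). Over all 24 pigs TAP1 (0.90), a peptide transporter subunit, BST2 (0.85), an antiviral membrane protein, LOC733579 (0.84) and CD40 (0.84) led. Of the 10 closest in each set, 4 were shared. ITGAL is a leukocyte integrin chain, CD74 the MHC class II invariant chain and CD3G a part of the T cell receptor complex.

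Markers of T and NK lymphocytes moved with 5 of the 9 genes between pigs. The list had 26 genes, 17 of them on the array by name and 15 past the filter. NKG7 and CXCR3 were not found on the array by name. The mean deviation of these 15 genes correlated over 22 pigs with CXCL9 (r = 0.81, rho = 0.84, adjusted permutation p = 0.00072 for r), GBP1 (r = 0.80, rho = 0.75, p = 0.00072 by the same permutation test), CXCL10 (r = 0.78, rho = 0.78), PSMB9 (r = 0.75, rho = 0.78) and GBP2 (r = 0.74, rho = 0.77). The tests were adjusted over 36 relations, 4 lists with 9 genes, and were an addition made with the values in view. How many other genes pass with this list is not given here, so the 5 genes are not shown to stand out. RFIpl pigs 5 and 7 had been left out for their levels of the 9 genes. Pig 7 stood at 1.53 SD over the 9 genes and at -0.18 in this list, and pig 5 at 2.03 SD and 0.37. The relation over all 24 pigs was not tested. The other members did not pass, with r of 0.48 for PSMB8, 0.36 for IRF1 and -0.08 for STAT2. CXCL11 did not pass either (r = 0.36, rho = 0.29), and its r was 0.07 without the 2 pigs farthest on the list.

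With slide means removed the 5 values were 0.77 for CXCL9, 0.85 for GBP1, 0.80 for CXCL10, 0.69 for PSMB9 and 0.74 for GBP2. Within the first and second scan day CXCL9 had r = 0.68 and 0.91, and GBP1 had 0.83 and 0.89. The summed linear level of the list ran from 14.2 to 21.1 in RFIplR pigs, from 14.2 to 22.6 in RFIpl pigs and from 12.6 to 18.6 in RFIneg pigs, in units of the array's 75th percentile. In whole liver, fewer cells of a type and less RNA per cell cannot be told apart. CCL5, which interferon also induces, belongs to this list. The part of these cells in the levels of the 9 genes was not tested.

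CD3E, a chain of the T cell receptor complex, had medians of -2.22 in RFIplR pigs, -2.23 in RFIpl pigs and -2.18 in RFIneg pigs. CD8A, the co-receptor of cytotoxic T cells, had medians of -1.74, -1.66 and -1.67 in the same order. For the Kupffer cell and macrophage list, 7 of 16 genes passed the filter, and 1 relation passed, with PSMB8 (r = 0.56, rho = 0.53, adjusted permutation p = 0.0382), which did not pass by rank. CD163, a Kupffer cell receptor, had medians of 4.24, 4.02 and 3.81, and CD68 was not found on the array by name. None of the 9 relations with the hepatocyte list passed (r from -0.32 to 0.06).

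The type I interferon type antiviral genes separated the high pigs from each other. The mean deviation of its 14 measured genes from the 24-pig mean was 2.38 in RFIpl pig 5 and 2.84 in RFIpl pig 7, but 0.43 in RFIpl pig 4, close to RFIplR pig 2 at 0.46 and below RFIneg pig 5 at 0.78. RFIpl pig 4, which had the highest GBP1 and PSMB8 of all pigs, was thus well below RFIpl pigs 5 and 7 in the antiviral list, though still above most pigs. In the T and NK lymphocyte list RFIpl pigs 4 and 5 stood at 0.38 and 0.37 and RFIpl pig 7 at -0.18. Over 22 pigs the antiviral list went with PSMB9 (r = 0.64, adjusted permutation p = 0.0145) and GBP2 (r = 0.63, adjusted permutation p = 0.0174), neither of which passed by rank (rho = 0.53 and 0.45) or without RFIpl pig 4. The pigs left out, RFIpl pigs 5 and 7, were the highest in this list, which narrows its range. These relations therefore cannot be ranked against those of the lymphocyte list, and the relations over all 24 pigs were not tested.

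**Figure D5:**
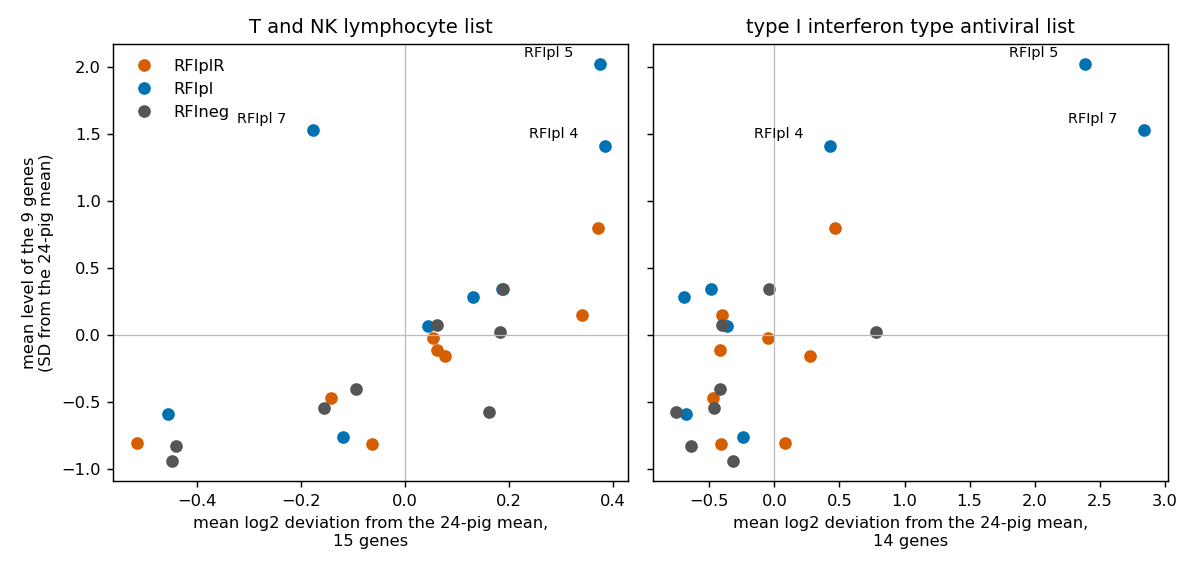
Mean level of the 9 genes in each pig (y axis, distance from the 24-pig mean in units of the SD within groups) against the mean log2 deviation of the T and NK lymphocyte list (left, 15 genes) and of the type I interferon type antiviral list (right, 14 genes). RFIpl pigs 5 and 7 lie far to the right at 2.38 and 2.84 in the antiviral list, whereas RFIpl pig 4 is at 0.43; in the lymphocyte list RFIpl pig 7 is at -0.18.

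Upstream of the members, IFNG, the ligand itself, was near the detection limit. It was well above background on 2 RFIplR arrays, 6 RFIpl arrays and 3 RFIneg arrays, with medians of -4.83, -4.58 and -4.84. Of the ligand, receptor and signal list, 11 of 17 genes passed the filter and 0 were called in any comparison. At an unadjusted p below 0.05, IL18 (0.23), a cytokine that stimulates interferon gamma release, was higher and JAK2 (-0.28) was lower in RFIpl than in RFIneg.

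Among the partners of the immunoproteasome, UBD (FAT10), a ubiquitin-like protein that targets proteins to the proteasome, was the 1 gene called. Its level ranged from 0.36 to 1.38 with a median of 0.81 in RFIplR pigs, from 0.13 to 1.65 with a median of 1.23 in RFIpl pigs, and from -1.22 to 0.39 with a median of -0.74 in RFIneg pigs. Only the lowest pigs of the high line and the highest RFIneg pig overlapped. UBD rose by 1.73 ± 0.22 (SE) in RFIpl over RFIneg pigs (limma adjusted p = 0.000625) and by 1.5 ± 0.22 in RFIplR over RFIneg pigs (limma adjusted p = 0.00166). RFIplR minus RFIpl was -0.23 ± 0.22.

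The other inducible catalytic subunit, PSMB10, had medians of 3.25 in RFIplR pigs, 3.54 in RFIpl pigs and 3.01 in RFIneg pigs, and differed by 0.51 ± 0.15 (SE) for RFIpl minus RFIneg (limma adjusted p = 0.194) and by -0.36 ± 0.15 for RFIplR minus RFIpl (limma adjusted p = 0.890). The proteasome activator subunits differed less: PSME1 by 0.20 ± 0.09 and PSME2 by 0.27 ± 0.13 for RFIpl minus RFIneg. PSME3, the subunit of another activator, differed by 0.23 ± 0.09 for RFIplR minus RFIneg. TAP1 differed by 0.31 ± 0.21 for RFIpl minus RFIneg. Of the 11 measured partners, 4 were higher in RFIpl than in RFIneg at an unadjusted p below 0.05 and 0 were lower, with a median of 0.14.

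Of 9 measured genes among receptor and related chemokines, 0 were called. CXCL2, which attracts neutrophils, was higher in RFIpl than in RFIneg at an unadjusted p below 0.05 (0.78 ± 0.35, SE). CCL2, which attracts monocytes, was lower in RFIplR than in RFIpl (-0.70 ± 0.34) and than in RFIneg (-0.87 ± 0.34), and CCL21, which guides lymphocytes and dendritic cells, was lower in RFIplR than in RFIneg (-0.81 ± 0.33). Of 7 measured other interferon gamma type targets, 0 were called, and CD274 (PD-L1), an inhibitory ligand of T cells, and BST2 were higher in RFIpl than in RFIneg at an unadjusted p below 0.05 (0.97 ± 0.28 and 0.71 ± 0.31). BST2 had medians of 0.67 in RFIplR, 0.56 in RFIpl and 0.34 in RFIneg pigs. Its RFIpl levels ran from 0.26 to 2.80 (SD 0.99), so its mean lay well above its median. CD274 had medians of -3.44, -3.38 and -4.09 in the same order, with an RFIpl SD of 0.68. Of 2 other measured GTPases, 0 were called or passed unadjusted. All 14 measured antiviral genes had a difference above 0 for RFIpl minus RFIneg, with a median of 0.72, a count that includes the high RFIpl pigs 5 and 7. Of these, 0 were called, and OAS2, which makes the activator of an RNA-degrading enzyme, passed unadjusted (1.01 ± 0.39).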

How the data were processed

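Per the labels' protocols, 150 ng of total liver RNA from each pig went into Cy3 labelling. Per the file headers, the deposited intensity values are the processed signal of Agilent Feature Extraction 10.7.3.1 on a 1-colour array, with a background surface subtracted and multiplicative detrending applied. A deposited log2 table of 27564 features was set against each array's scanner values: it holds the log2 processed signal centred on the median of the array. R 2.10.0 appears in the submitters' processing notes. No source used here gives a genome build for the design.

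From the scanner files, control spots and spots flagged as outliers were left out, each array was scaled by its 75th percentile on the log2 scale, and 43803 spots were averaged to 43603 probes, of which 29665 passed the filter on dim probes. A gene is represented by its brightest probe where 1 is needed. Probes were named through accessions, gene identifiers and symbols matched to pig gene tables, which gave 1 symbol for 11309 probes. Tests used limma 3.58.1 in R 4.3.3 with all 24 arrays and group as the only factor. They were checked on simulated data (log2, 29665 probes, RFIpl minus RFIneg). There 86% of differences of 1 and 99% of differences of 2 were recovered, and 11 unchanged probes were called. The simulation gave each probe independent normal noise with the same SD in all groups. Several members had a wider spread that was unequal between groups, so these shares do not describe them. Correlations used Python 3.11.15 with scipy 1.17.1. The number of arrays limits the precision.

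The genes, lists, named genes and most alternatives were chosen with earlier results of these data known. Named by rule were every member, the pathway genes with an unadjusted p below 0.05 (at most 5 a comparison), IFNG, CXCR3, PSMB10, PSME1, PSME2, TAP1, a marker of each main cell type, and the 10 genes most like the members; some of these are not reported here. Deviations of pigs of the same number in different groups correlated at -0.19 to 0.42, with a median of 0.03 and 8 of 24 pairs above 0.1. Pigs of different numbers had a median of -0.01. Numbers were not taken as pairs, though these values do not exclude pairing, and the fit with number as a block is given below. The labels call the samples separate pigs. Alternatives covered background correction, normalization, the deposited table, the filter, slide, scan day, array weights and pigs left out.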

Additional observations from a re-analysis of the deposited data

Results flagged for a closer look

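Over the 23 member probes and 3 groups, 2 of 69 sets of 8 pigs held a pig far from the rest by Dixon's test at 95%, which by chance marks about 1 in 20. STAT2 probe A_72_P119201 was at 1.91 in RFIplR pig 8, the lowest of that group, and STAT2 probe A_72_P531831 was at -0.094 in RFIneg pig 8. The 4 low CXCL11 values were not marked, since they came in pairs within their groups.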

How the results depend on the processing

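In each of the 16 alternatives to the reported setting, 0 member probes were called in any comparison, the fit with the pig number as a replicate block included (0, 0 and 0; all probes 48, 0 and 98). The lowest adjusted p of any member probe was 0.0995, for RFIpl minus RFIneg with that block. Pairs with an adjusted p below 0.05 numbered 12 of 36 over 22 pigs and between 8, without RFIpl pigs 4, 5 and 7, and 18, with normexp; the rank measure gave 10, and 4 without RFIpl pigs 4, 5 and 7. CXCL10 with CXCL11 had r = 0.30 with normexp, against 0.69 as reported. Over all probes, calls for RFIpl minus RFIneg and RFIplR minus RFIneg numbered 45 and 82 as reported. They were 5 and 14 with normexp, 26 and 41 with no filter, 35 and 51 with slide as a block, 5 and 38 within the first scan day, 10 and 10 within the second (with 1 for RFIplR minus RFIpl), 46 and 32 with only the groups compared, 88 and 87 with array weights, 28 and 22 without slide 3, and 19 and 73 without RFIpl pigs 4, 5 and 7; the cause was not tested. Normexp moved the median of all probes for RFIplR minus RFIneg by about 0.1, to -0.10. Signs were compared in 15 alternatives. In each of these the difference of RFIpl minus RFIneg kept its sign for CXCL9, GBP1, GBP2, IRF1, STAT2, PSMB8 and PSMB9, and not for CXCL10 and CXCL11. With the brightest probe replaced, PSMB9 moved to 0.18 and -0.29 (RFIpl and RFIplR minus RFIneg) and STAT2 to 0.01 (RFIplR minus RFIpl).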
